A study of Mus musculus with 5 samples.

Results

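Of the mature miR-101 arms held by Ago in developing mouse liver, miR-101a-3p, miR-101b-3p and miR-101a-5p are described here with their sites, from mid gestation to adulthood. The members were every entry whose interaction name carried mmu-miR-101a-3p, mmu-miR-101b-3p or mmu-miR-101a-5p, 22285 of 3254259 entries, from 3 of the 995 miRNAs named in any library. They were chosen by name with their read numbers and sites in these libraries known, so their abundance is described here without a test. In Ago HITS-CLIP, RNA is crosslinked to Ago with ultraviolet light, here in homogenized liver, recovered with antibodies and sequenced, so that both the miRNA and the RNA fragment beneath it are read. The C57BL/6 livers (C57BL/6J in the methods) came from embryos (e12.5, e15.5, e18.5), from pups 7 days after birth (P7) and from adults aged 6 to 8 weeks. They were irradiated 3 times at 254 nm with 0.2 J/cm2. Where 5 values are given in a row, they follow the order of these stages. Ago2 was precipitated at all stages, whereas an Ago1 antibody was added at P7 and in the adult, so antibody and age after birth cannot be told apart. The labels give 1 sample per stage, and the methods name 2 biological replicates for Ago2. Each stage was therefore taken as 1 library here, and a difference between stages is a difference between libraries. Each embryonic table holds 2 lists, which were joined. What they are is not known, and they may be replicates put into 1 table. The supplement of the paper names an e18.5 rep2 beside e18.5, and no such entry for the other stages.

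miRNAs pair with target RNAs through the seed at their 5′ end, and the Ago protein that carries them lowers the stability and translation of the paired mRNA. A hairpin yields a 5p and a 3p arm, of which one is usually kept by Ago and the other discarded. miR-101 is known as a tumor suppressor in the liver, with the histone methyltransferase Ezh2 as its best known target. Its seed overlaps that of miR-144, an erythroid miRNA, and the fetal liver is the site of blood formation before birth.

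The mature sequences show what the arms share and where they part. They are those of RefSeq on GRCm38, which were the same as the deposited ones, with the seed (bases 2 to 8) in capitals.
miR-101a-3p: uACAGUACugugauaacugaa
miR-101b-3p: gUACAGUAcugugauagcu
miR-101a-5p: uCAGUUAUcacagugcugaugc
miR-144-3p: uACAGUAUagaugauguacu
miR-101a-3p and miR-101a-5p lie on the minus strand at chr4:101346957-101346977 and chr4:101346993-101347014, within Mir101a. miR-101b-3p lies on the plus strand at chr19:29135338-29135356, within Mir101b. The deposited miR-101b-3p starts 1 base earlier than miR-101a-3p. When aligned with that offset, 17 of 18 bases were identical, but the seeds were shifted. The complete seed match was GTACTGT for miR-101a-3p, TACTGTA for miR-101b-3p and ATAACTG for miR-101a-5p. For miR-144-3p, at chr11:78073047-78073066, it was ATACTGT, which differs from that of miR-101a-3p only in the base paired with position 8. Thus a 6mer (TACTGT, paired with bases 2 to 7) or a 7mer-A1 (the 6mer followed by an A) of miR-101a-3p is also a site of miR-144-3p. A 7mer-m8 (paired with bases 2 to 8) or an 8mer (a 7mer-m8 followed by an A) of one is at most a 6mer or 7mer-A1 of the other, so that the extended form separates the pair.

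As a share of the miRNA reads, both 3p arms were higher in each later library. The read number of miR-101a-3p was 3381, 2003, 4527, 15817 and 67230, or 132, 198, 582, 1313 and 2934 reads per 1000000 miRNA reads (rpm). For miR-101b-3p the numbers were 25837, 13036, 20616, 55629 and 141492, or 1011, 1291, 2649, 4617 and 6174 rpm. Adult over e12.5 was 22.2-fold for miR-101a-3p and 6.11-fold for miR-101b-3p, which are log2 changes of 4.46 (4.4 to 4.52) and 2.61 (2.58 to 2.63) after adding 1 rpm. The intervals are 95% intervals for counting error alone, and no spread between animals could be had. In the first of the 2 lists that the e12.5 table holds, the change of miR-101b-3p was 1.98. By rank, miR-101a-3p moved from 188 of 745 miRNAs at e12.5 to 36 of 585 in the adult, and miR-101b-3p from 79 to 24. miR-101b-3p was the more abundant in every library, by 7.64, 6.51, 4.55, 3.52 and 2.11-fold, where the 2 lists of e12.5 gave 13.03 and 6.35.

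The 5p arm was rare and did not follow this order. Its read number was 43, 1, 77, 28 and 1565, or 1.68, 0.0990, 9.90, 2.32 and 68.3 rpm. The adult library was thus the highest, and the P7 library was below e18.5. Adult over e12.5 was 40.6-fold, a log2 change of 4.69 that was 5.87 against the first e12.5 list and 2.74 when 10 rpm were added. The 5p arm made up 1.26%, 0.0499%, 1.67%, 0.177% and 2.28% of miR-101a reads, with no order over stages, and the 2 lists of e12.5 gave 0.153% and 1.52%. At e15.5 and e18.5 it was named in only 1 of the 2 lists of the table. miR-101b-5p had 34 reads at P7 and 43 in the adult. miR-101c, whose 19 bases are identical to bases 2 to 20 of miR-101a-3p, had at most 711 reads, in the adult.

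**Figure D1:**
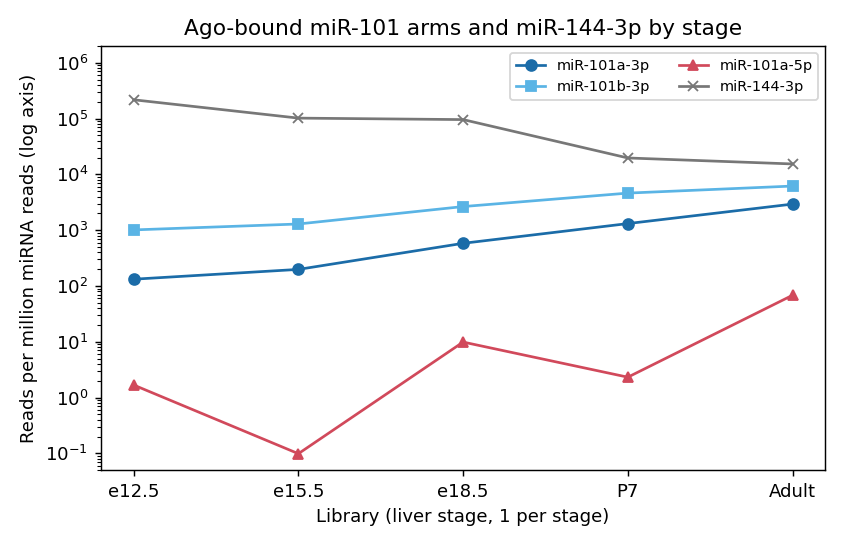
Reads per 1000000 miRNA reads on a log axis of the 3 miR-101 arms and of miR-144-3p, 1 point per library and stage. With the lists of each embryonic library joined, both 3p arms are higher in each later library and miR-144-3p is lower. miR-101a-5p is highest in the adult at 68.3 rpm.

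miR-144-3p went the opposite way, with 216916, 101808, 95803, 19674 and 15366 rpm from e12.5 to adult. It outnumbered miR-101a-3p and miR-101b-3p together by 190-fold at e12.5 and by 1.69-fold in the adult, where the 2 lists of e12.5 gave 71.1 and 244. The miRNAs that mark cell types also differed between the libraries. The 3 hepatocyte miRNAs miR-122-5p, miR-192-5p and miR-194-5p were all listed in every library, with 2.36%, 6.79%, 12.8%, 23.0% and 23.0% of the miRNA reads. The 5 blood-cell miRNAs miR-142a-3p, miR-144-3p, miR-451a, miR-223-3p and miR-486a-5p were also all listed, with 62.8%, 52.3%, 40.0%, 12.53% and 6.84%. Without miR-144-3p the other 4 had 41.1%, 42.1%, 30.4%, 10.6% and 5.31%, so that e12.5 and e15.5 were close. Single members did not all keep this order. miR-142a-3p had 32.2% at e12.5 and 37.14% at e15.5, miR-223-3p was highest at e18.5 (2.87%), and miR-451a had 0.299% at P7 and 0.722% in the adult. miR-126a-3p of endothelium had 0.5998%, 0.9499%, 1.245%, 1.278% and 5.05%, higher in each later library, as both 3p arms of miR-101 were. The 4 mesenchymal miRNAs miR-199a-3p, miR-214-3p, miR-143-3p and miR-145a-5p had 0.230% to 1.24%. The part of these cells in the abundance of miR-101 was not tested. In whole liver, fewer cells of a type and less RNA per cell cannot be told apart.

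Among 255 miRNAs with at least 100 rpm in any library, those with the profile most like miR-101a-3p were let-7c-5p, miR-194-5p, miR-192-3p, let-7b-5p and miR-99a-3p, at distances of 0.931 to 1.33. The distance is Euclidean, over the 5 libraries, on log2(rpm + 1) centred on each miRNA's mean. miR-101b-3p came 7th at 1.47. Those most like miR-101a-5p were miR-145a-5p, miR-29c-5p, miR-193a-3p, miR-192-3p and miR-29b-3p, at 1.20 to 2.57. The first 4 of these also had a higher value at e18.5 than at P7.

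The number of sites did not follow the abundance. A site is a seed match in a cluster of overlapping reads, and its reads were taken as the peak height of that cluster, at least 5 reads and not scaled to library size. The e12.5 table heads this column differently from the others, and whether it is the same measure there is not known. miR-101a-3p had 3102, 2074, 1211, 1747 and 1092 distinct sites. miR-101b-3p had 2771, 2104, 1122, 1683 and 760. miR-101a-5p had 1235, 124, 298, 660 and 290, where e15.5 and e18.5 rest on 1 list. All clusters together numbered 208193, 81121, 76948, 124781 and 81194 in the same order. Sites were listed for any miRNA that a list names, whatever its read number. In the first e12.5 list, miR-101a-5p had 361 entries on 1 read. The sites are therefore places where an arm could pair within an Ago cluster, and the reads beneath them are shared by all miRNAs with a match in the cluster.

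Most sites were shared with miR-144-3p. Of the miR-101a-3p sites, 83.0%, 86.9%, 82.8%, 82.5% and 83.1% from e12.5 to adult were also miR-144-3p sites, which was 92.4% to 94.5% of those of miR-144-3p. By sequence all would be shared, since each holds TACTGT. The lists thus leave out some matches of each miRNA, by a rule that is not known, and the shares below rest on the listed sites. By contrast, 26.5% to 38.6% of the miR-101a-3p sites were also listed for miR-101b-3p. The 7mer-A1 took 26.0% (24.5 to 27.6), 30.5%, 27.1%, 23.9% and 17.3% of the miR-101a-3p sites. The 7mer-m8, in which base 8 pairs with miR-101a-3p and not with miR-144-3p, took 15.4% (14.2 to 16.8), 13.8%, 17.1%, 21.1% and 26.8%. Over all miRNAs the 7mer-m8 ranged from 22.7% to 23.3%, so the share of miR-101a-3p lay below it in the embryo and at P7. Without the Mir101 genes and the sites in sequence resembling miR-101 (described below), which was tried after the data were seen, the share was 14.8%, 13.4%, 16.4%, 19.7% and 23.4% (20.9 to 26.1), so that the interval of the adult held the 23.3% of all miRNAs. The 8mer took 6.58% to 9.80% for miR-101a-3p, 14.3% to 19.2% for miR-101b-3p and 6.45% to 14.5% for miR-101a-5p, against 7.65% to 8.79% over all miRNAs. The 14.5%, in the adult, was 7.58% (4.96 to 11.4) without the same sites.

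The base that decides between miR-101a-3p and miR-144-3p changed with stage. It is the base just before TACTGT, which extends the pairing of miR-101a-3p when it is G and that of miR-144-3p when it is A. G stood there in 20.9% (95% Wilson interval, 18.4 to 23.6), 21.7%, 24.8%, 32.2% and 36.0% (30.9 to 41.4) of the 3′UTR clusters listed for miR-101a-3p. A stood there in 30.4% (27.5 to 33.4), 28.5%, 27.9%, 20.5% and 16.7% (13.02 to 21.22). T and C, which extend neither, had no such order. T was at 32.7%, 36.1%, 30.9%, 31.9% and 28.1%, and C was between 13.7% and 19.2%. A cluster with TACTGT after different bases counted once for each, so these are shares of 952, 692, 408, 590 and 317 cases, against 949 clusters at e12.5 and 690 at e15.5. Clusters listed for miR-144-3p and not for miR-101a-3p were left out. A was thus counted in 289 clusters at e12.5 and 53 in the adult, where 298 and 60 held an extended miR-144-3p site.

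**Figure D2:**
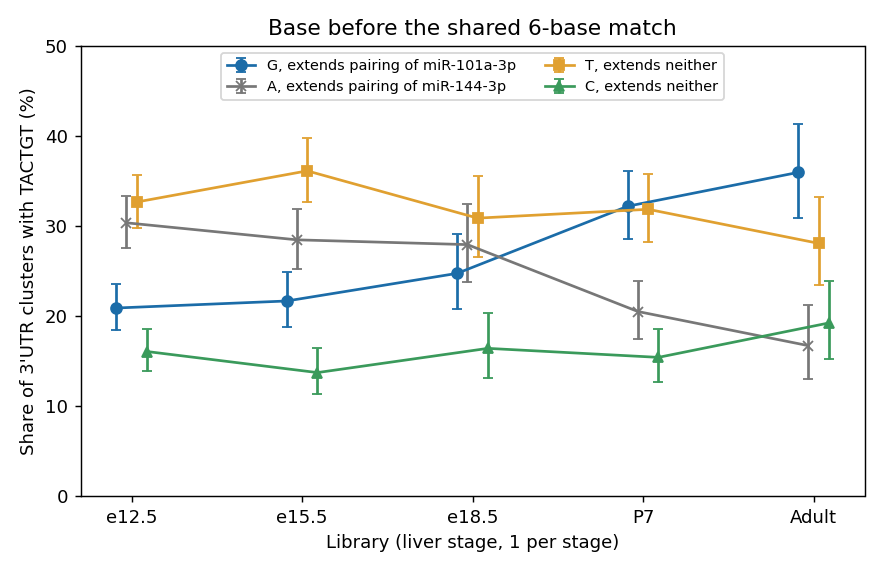
Share of 3′UTR clusters listed for miR-101a-3p, in percent, by the base before TACTGT, 1 point per library with 95% Wilson intervals. G, which extends miR-101a-3p, is at 20.9% at e12.5 and 36.0% in the adult, and A, which extends miR-144-3p, is at 30.4% and 16.7%.

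Counted as extended sites (7mer-m8 or 8mer), 198 3′UTR clusters held one of miR-101a-3p and 298 one of miR-144-3p at e12.5, and 114 against 60 in the adult. The log2 odds ratio was 1.52 (0.9956 to 2.04, two-sided Fisher's exact test, p = 7.03e-09). miR-101a-3p had 39.9%, 41.4%, 45.1%, 57.6% and 65.5% of these clusters from e12.5 to adult. Among the clusters listed for miR-101a-3p, those with G were set against those with T or C before TACTGT. Those with G were more frequent in the adult library (log2 odds ratio 0.83, 0.40 to 1.26, exact test, adjusted p = 3.14e-04). Those with A were less frequent (-0.82, -1.32 to -0.32, exact test, adjusted p = 0.00126, adjusted over these 2 comparisons, which were added after the data were seen). The CDS clusters listed for miR-101a-3p went the same way, with G at 21.99% at e12.5 and 33.2% in the adult and A at 26.5% and 16.1%. A test on 2 libraries compares those libraries and not the stages. Clusters are not replicates, and reads were amplified by PCR, so intervals cover counting error only. The amount of mRNA was not measured, so that more reads at a site and more of its mRNA cannot be told apart. Blood, hepatocyte and endothelial miRNAs also differed between these libraries, as given above, and their part in this result was not tested.

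The arms took a smaller share of the 3′UTR clusters in the adult library than at e12.5. For miR-101a-3p it was 2.41% at e12.5 (949 of 39452), 3.79%, 2.53% and 1.99% between, and 1.99% in the adult (317 of 15914). The log2 odds ratio of adult over e12.5 was -0.28 (-0.46 to -0.09, Fisher's exact test, adjusted p = 0.00976). For sites of at least 7 matched bases it was -0.10 and did not pass (exact test, adjusted p = 0.595). miR-101b-3p had 2.28% and 1.53%, a log2 odds ratio of -0.58 (-0.79 to -0.38, exact test, adjusted p = 1.36e-07). miR-101a-5p had 0.956% and 0.446%, a log2 odds ratio of -1.11 (-1.47 to -0.74, exact test, adjusted p = 3.38e-09). p-values were adjusted over 467 miRNAs, of which 40.7% were called in either direction, 16.5% larger in the adult and 24.2% smaller (77 and 113). Counted over genes in place of clusters, the log2 odds ratios were -1.02, -1.29 and -1.87 for miR-101a-3p, miR-101b-3p and miR-101a-5p. The counts of miRNAs were 28 and 387 on that setting and with at least 10 reads about as many were larger as smaller (102). A call was thus common among miRNAs. miR-144-3p, which shares most of these sites, had -0.31 (exact test, adjusted p = 0.00500). With at least 7 matched bases it went from 1.29% to 0.924%, and miR-101a-3p from 1.20% to 1.12%.

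Both 3p arms had a larger part of their clusters in 3′UTRs than the median miRNA in each library. The share for miR-101a-3p was 30.7% at e12.5 and 29.0% in the adult, against medians of 22.8% and 19.97% over all miRNAs, and lay between the 88th and 95th percentile in the 5 libraries. miR-101b-3p had 32.5% and 32.1%, and miR-101a-5p 30.6% and 24.5%. The 5p arm was near the median at e18.5, with 24.8% against 24.01% (percentile 56.0). CDS clusters were 26.1% of those of miR-101a-3p at e12.5 and 39.2% in the adult, while over all clusters they were 28.0% and 48.0%. Whether the arms of Mir101a differ was tested in each library, with clusters that hold sites of both left out. 3′UTRs took 30.7%, 34.0%, 30.8%, 33.9% and 29.4% of the 3p clusters, and 30.6%, 38.8%, 25.3%, 35.9% and 25.5% of the 5p clusters. No library passed (exact tests, adjusted p = 0.941 at e12.5 and 0.466 in the other 4). The log2 odds ratio in the adult was 0.28 (-0.16 to 0.72). With at least 7 matched bases, it was 1.11 (0.43 to 1.80, exact test, adjusted p = 0.00563), with 176 of 576 clusters (30.6%) for 3p and 24 of 142 (16.9%) for 5p. The other 4 libraries did not pass on that setting either.

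**Figure D3:**
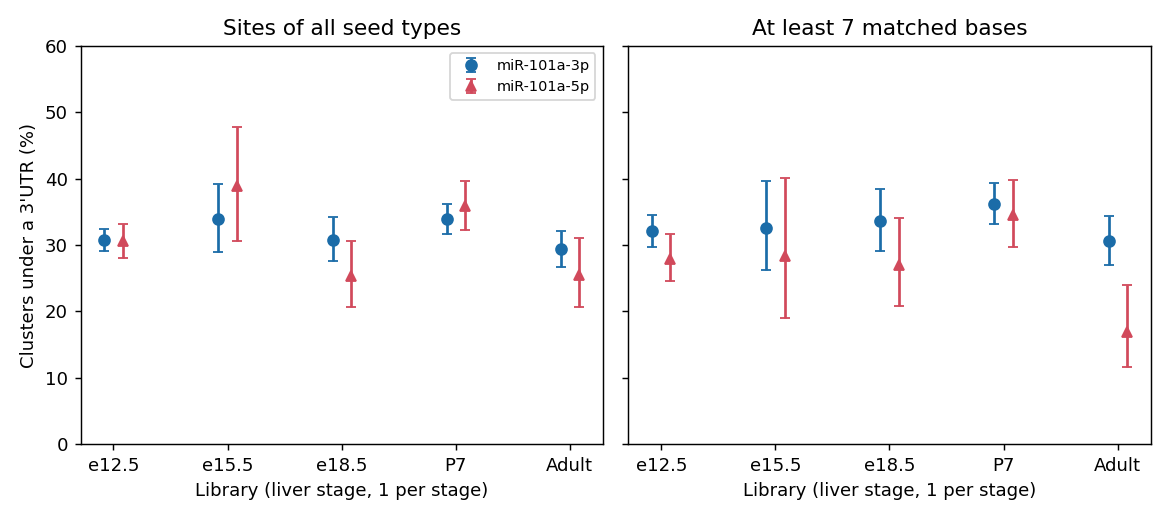
Share of clusters under a 3′UTR, in percent, for miR-101a-3p and miR-101a-5p in each library with 95% Wilson intervals, for all sites (left) and those of at least 7 matched bases (right). The intervals overlap in all libraries on the left, and on the right they are apart in the adult, at 30.6% and 16.9%.

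The deposited conservation score runs from 0 to 1, and a site was counted as conserved at 0.9 or above. Over the 5 libraries, 93 of 171 3′UTR 8mers of miR-101a-3p (54.4%, 46.9 to 61.7) were conserved, 124 of 238 of miR-101b-3p (52.1%, 45.8 to 58.4) and 24 of 44 of miR-101a-5p (54.5%, 40.1 to 68.3). The median over 536 miRNAs was 35.4%, and the arms lay at percentiles 82.8, 81.3 and 83.0. For 6mers the shares were 41.1%, 38.5% and 40.3% against a median of 29.7%, and for 7mer-A1 sites 46.9%, 43.2% and 34.6% against 33.3%. In CDS the 8mers were near the median of 61.2%, with 60.3%, 68.3% and 65.2%. The lowest place was held by the CDS 7mer-A1 of miR-101a-5p, with 39.2% (29.2 to 50.3) against a median of 60.1% (percentile 5.09), and 62.0% and 70.3% for the 3p arms. No test between the arms was run on these shares.

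Few sites recurred in all libraries. miR-101a-3p had 5982 distinct sites, of which 4174 were listed in 1 library and 138 in all 5. Of its 3′UTR sites with at least 7 matched bases, 35 of 885 recurred in all 5, and of its CDS sites 39 of 600. miR-101b-3p had 5509 distinct sites, with 40 of 987 3′UTR sites of at least 7 matched bases in all 5, and miR-101a-5p had 1981, with 3 of 276. In genes, the 3′UTR sites of miR-101a-3p fell in 1419, those of miR-101b-3p in 1357 and those of miR-101a-5p in 556, and with at least 7 matched bases in 800, 870 and 270. On that setting miR-101a-3p and miR-101b-3p shared 586 genes, 73.3% of the former and 67.4% of the latter. miR-101a-3p shared 56 with miR-101a-5p, 7.0% and 20.7%. Sites of both arms, with at least 7 matched bases, within 50 bases of each other were rare, with 9 pairs among 2958 sites of miR-101a-3p and 982 of miR-101a-5p, 5 of them in 3′UTRs, in 1190002N15Rik, Acly, Ypel2, Fga and Nr2f2.

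Of the 3′UTR sites listed in all 5 libraries, 4 are printed with the paired bases and the following A, where there is one, in capitals (mm10, 5′ to 3′). They are among the 10 such miR-101a-3p sites of at least 7 matched bases with the highest median reads, and show the 7mer-A1 that miR-144-3p shares beside the extended form.
Itgb1, chr8:128732990-128732996, plus strand, 7mer-A1: tttacctttttcacaaaTACTGTA
Eif4g2, chr7:111072338-111072344, minus strand, 7mer-A1: tgaatagcaacactgaaTACTGTA
Pip5k1c, chr10:81319496-81319502, plus strand, 8mer: ggacggtgtgtgaactGTACTGTA
Piezo1, chr8:122481752-122481758, minus strand, 8mer: ctctcccttcccacaaGTACTGTA
Itgb1, the beta 1 integrin subunit, had 3149, 1497, 703, 242 and 90 reads. Eif4g2, a translation initiation factor, had 2312, 1108, 311, 228 and 225. Unscaled, the reads of both were lower in each later library. Scaled as reads per 1000000 cluster reads, Itgb1 went from 70.2 at e12.5 to 90.6 at e15.5 and 3.62 in the adult, and adult over e12.5 was a log2 difference of -3.95 after adding 1. Pip5k1c, a phosphoinositide kinase, had 359, 182, 208, 218 and 550 reads, with the adult highest.

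Of the other recurrent 3′UTR sites of miR-101a-3p, the 7mer-A1 sites again had most reads in the embryo. Mtfr1, a mitochondrial fission regulator, had 5807, 4457, 199, 36 and 626 reads. Atp1b2, a sodium pump subunit, had 965, 1100, 209, 62 and 25, and Nsd1, a histone methyltransferase, had 784, 323, 189, 154 and 22. Among those with G before TACTGT, Slc25a3, the mitochondrial phosphate carrier, had 519, 475, 349, 170 and 461, and Cep350, a centrosomal protein, had 236, 45, 171, 484 and 380. The 8mer of Piezo1, a mechanosensitive ion channel, was an exception, with 1733, 210, 213, 37 and 25. Slc25a3 turned with scaling, from 11.57 at e12.5 to 18.53 in the adult. Over all 35 sites listed in every library, counted after the values were seen, 12 of the 14 7mer-A1 sites had fewer scaled reads in the adult than at e12.5. Of the 7 7mer-m8 sites 3 had fewer, and of the 14 8mers 6.

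The complete match of miR-101b-3p, TACTGTA, is the 7mer-A1 of miR-101a-3p, and the 7mer-A1 of Itgb1 and of Atp1b2 were 8mers of miR-101b-3p. Its own sites included Skp1a, a ubiquitin ligase subunit, with 3246, 648, 2281, 1194 and 146 reads, and Mgea5, which removes O-GlcNAc from proteins, with 3463, 2144, 169, 289 and 16. The sites of miR-101a-5p were fewer. Lars2, the mitochondrial leucyl-tRNA synthetase, had 1857, 710, 391, 181 and 264 reads, and AA474408, with 103, 10, 40, 46 and 37, has the same site sequence. Whether the reads at either site come from its own mRNA, or from another RNA with that sequence, was not tested. Kmt2a, a histone methyltransferase, had 50, 151, 164, 73 and 55. Prrc2c had 348, 334, 240 and 11, and Srp19, of the signal recognition particle, had 529, 133, 108 and 78, and neither was listed in the adult.

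Among sites listed in both e12.5 and adult with at least 7 matched bases in 3′UTRs, 11 of 81 of miR-101a-3p (13.6%) had at least 2-fold more reads per 1000000 cluster reads in the adult, where 16.1% of 5611 positions of all miRNAs did. At least 2-fold fewer were 27 (33.3%), where 19.1% did. For miR-101b-3p 8 of 87 were higher and 34 lower (29 and 32 when scaled to the reads in mRNA clusters), and for miR-101a-5p 1 and 3 of 8 (3 and 3). The median log2 difference was -0.22 for miR-101a-3p, -0.35 for miR-101b-3p and 0.09 over all positions. Scaled to the reads in mRNA clusters, the median over all positions was 0.83, with 45.2% higher and 16.3% lower, and that of miR-101a-3p was 0.31, with 32 higher and 26 lower. Whichever scale was used, the miR-101a-3p median lay below that of all positions. These are descriptions, since 1 library per stage gives no spread.

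The largest differences upward among 3′UTR sites of miR-101a-3p included 4 described here, all with G before TACTGT. A site not listed was set to 0 for this ranking. Those of 3 liver genes are printed to show this base.
Cyp4v3, chr8:45289100-45289106, minus strand, 7mer-m8: acaccccagatgcccaGTACTGTc
Sepp1, chr15:3280272-3280278, plus strand, 7mer-m8: ctcttcatttaatgctGTACTGTt
Fga, chr3:83033543-83033549, plus strand, 8mer: tattccattgttctttGTACTGTA
Cyp4v3, a fatty acid hydroxylase, was not listed in the embryo and had 42 reads at P7 and 767 in the adult, at a position also listed under the CDS of Klkb1, the plasma prekallikrein. Sepp1, selenoprotein P of the plasma, was not listed at e12.5 and had 33, 118, 207 and 209 from e15.5 on. Fga, a fibrinogen chain, was not listed at e12.5 and had 260, 124, 54 and 193. Pxmp4, a peroxisomal membrane protein, had 5 reads at e18.5 and 128 in the adult. The largest differences downward were in Psmd1, a proteasome subunit (2971, 2690, 158 and 105 reads and not listed in the adult), Mrps23, of the mitochondrial ribosome (1555, 897 and 91, then not listed), Hipk1, a kinase (1250, 1392, 539 and 140, then not listed), Ikzf1, the lymphoid factor Ikaros (960, 355, 5 and 20, then not listed), and Piezo1. Of these, Psmd1, Hipk1 and Ikzf1 were 7mer-A1 sites, and Mrps23 and Piezo1 had G.

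For miR-101a-5p the largest upward was again Fga, 15 bases from the 3p site.
Fga, chr3:83033558-83033564, plus strand, 7mer-A1: tgtactgtagctaaatgTAACTGA
The printed stretch holds the 3p site as well, and both sites had 193 reads in the adult. Epas1, a hypoxia-inducible factor, followed with 150, 64 and 105 from e18.5 on, then Sparc, a matrix protein, Ccng1, cyclin G1, and B230219D22Rik, with 97, 60 and 57 in the adult. Largest downward were Stk38 (1311 at e12.5 and 89 at e18.5), Nelfcd (988, then 49 at e18.5 and 20 at P7), Fryl (894, 60, 56 and 74), Lpcat1 (791, then 54 at e18.5 and 207 at P7) and Mt2, a metallothionein (756, then 140 and 29), and none of these was listed in the adult. For the 5p arm a missing entry at e15.5 or e18.5 speaks for 1 list only.

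**Figure D4:**
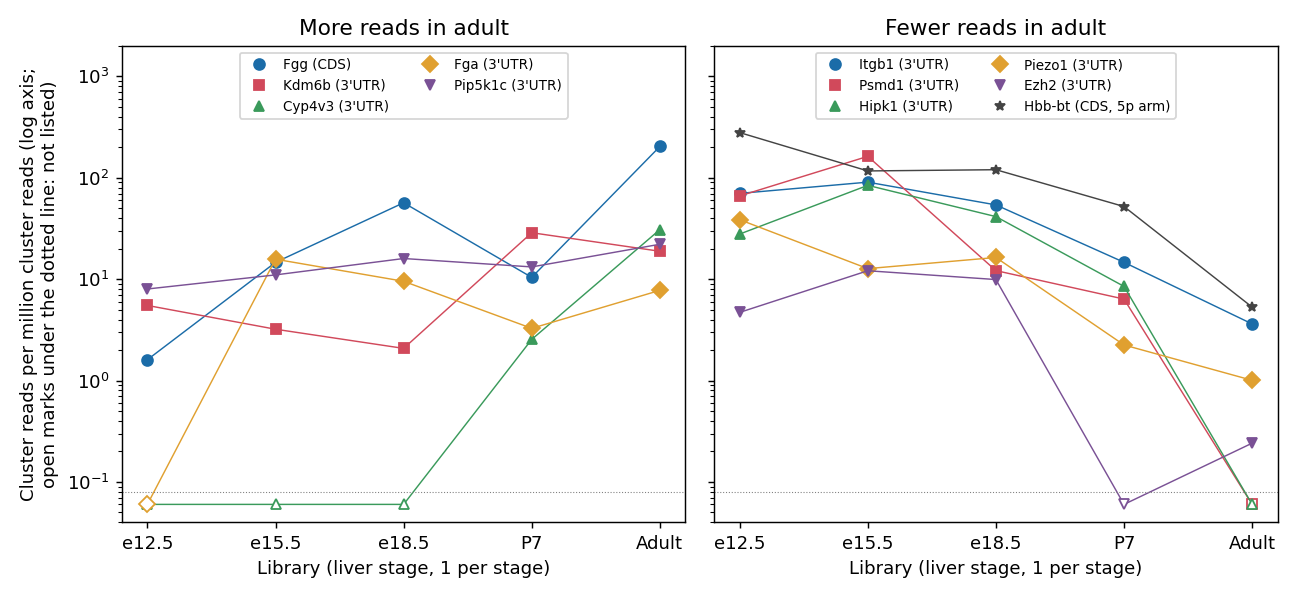
Reads per 1000000 cluster reads, on a log axis, at sites of the miR-101 arms, by library, with open marks under the dotted line where a site was not listed. The left panel has sites with more reads in the adult than at e12.5, such as Fgg at 204, and the right panel those with fewer, such as Itgb1 at 3.62.

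In coding sequence, the 5 sites of miR-101a-3p with the highest median reads among the 39 listed in every library were Daam1, a formin (2583, 642, 440, 50 and 49 reads), Mtfr1, whose site is listed under CDS as well, Stat3, Pdzd8 (1508, 707, 256, 103 and 81) and Dicer1 (998, 603, 252, 149 and 96). Dicer1 cuts the miRNA precursors. Stat3, a transcription factor of cytokine signalling, was the one 8mer of these 5, with 917, 523, 365, 349 and 489 reads, or 20.4 per 1000000 cluster reads at e12.5 and 19.7 in the adult, a log2 difference of -0.05 that was 0.73 when scaled to the reads in mRNA clusters.
Stat3, chr11:100893114-100893120, minus strand, 8mer: aggaggcatttggaaaGTACTGTA
For miR-101a-5p the most read were the adult beta globin genes Hbb-bt and Hbb-bs, with 12536, 1931, 1563, 859 and 132 reads at both, which have the same sequence there, so that their reads cannot be assigned to one.
Hbb-bt, chr7:103813543-103813549, minus strand, 7mer-m8: ccatggcaagaaagtgATAACTGc
These are red-cell mRNAs, and per 1000000 cluster reads each site had 279, 117, 120, 52.1 and 5.30. The part of blood cells in these reads was not tested. The chaperone Hsp90aa1 had 1143, 270, 166, 24 and 42, Sod1, the superoxide dismutase, had 330, 76, 43, 10 and 94, and Afp, alpha-fetoprotein, had 531, 557, 219 and 471 and was not listed in the adult.

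Lists of genes, 4 in number, were drawn up from general knowledge, and are counted over sites of at least 7 matched bases in any mRNA region. Among 14348 genes with a listed mRNA site of any miRNA, 8.98% had one for miR-101a-3p, 9.39% for miR-101b-3p and 3.42% for miR-101a-5p. Genes differ in length and expression, which these shares do not allow for. Of 16 known miR-101 targets, 10 had a 3′UTR site of miR-101a-3p, where 5.58% of all genes did. They were Ezh2, Fos, App, Atxn1, Rac1, Rab5a, Stmn1, Zeb1, Dnmt3a and Abca1. miR-101b-3p had 11, with Mcl1 in addition, and miR-101a-5p had 3, Mcl1, Atxn1 and Tgfbr1. Of the 10, Ezh2 and Abca1 were the ones listed in the adult.

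Ezh2, the catalytic subunit of Polycomb repressive complex 2, had 2 sites of miR-101a-3p in its 3′UTR.
Ezh2, chr6:47530476-47530482, minus strand, 7mer-m8: gcttcaggaaccttgaGTACTGTg
Ezh2, chr6:47530421-47530427, minus strand, 8mer: attctgaatttgcaaaGTACTGTA
In the embryonic libraries the former had 211, 200 and 129 reads, it was not listed at P7, and it had 6 in the adult, and the latter 66 at e12.5 and 7 at e18.5. Scaled to cluster reads, the former had 4.70, 12.1 and 9.92 in the embryo and 0.241 in the adult, so that e15.5 was highest. Abca1, the cholesterol exporter, had 172, 202, 226, 63 and 173 at its more read 7mer-A1, with no order over stages. Another 7mer-A1 in its 3′UTR had 6 at e18.5, 6 at P7 and 28 in the adult. Stmn1, a microtubule regulator, had 134, 48 and 63 in the embryo, Zeb1 had 24 and 29 in the earliest 2 libraries, and Mcl1, an inhibitor of apoptosis, had 299, 315 and 44 in the embryo and 30 in the adult at the miR-101b-3p site. Fos, App and Rac1 were listed for miR-101a-3p with 47, 39 and 7 reads at e15.5, App also with 24 at P7. Rab5a had 13 at e12.5, Dnmt3a had 22 at P7, and Atxn1 had 53 at e18.5 and 38 at P7.

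Of 12 genes of Polycomb repressive complex 2 and its opposing demethylases, 3 had a site of miR-101a-3p (Ezh2, Rbbp7 and Kdm6b), 4 of miR-101b-3p (Mtf2 in addition) and 2 of miR-101a-5p (Rbbp4 and Aebp2). Kdm6b, a demethylase that removes the mark that Ezh2 sets, had an 8mer in its 3′UTR in every library.
Kdm6b, chr11:69398936-69398942, minus strand, 8mer: agggtgagcgactcctGTACTGTA
Its reads were 247, 53, 27, 474 and 469, so that the P7 and adult libraries were the highest, whereas Ezh2 was highest in the embryo. Rbbp7, a histone-binding subunit, had 71 at e12.5 and 10 at P7.

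Of 20 plasma proteins of hepatocytes, 4 had a site of miR-101a-3p, Apob, Fga, Fgb and Fgg, of which only Fga had it in the 3′UTR. All 3 fibrinogen chains were thus among them. The most read was in the CDS of Fgg, the gamma chain.
Fgg, chr3:83010541-83010547, plus strand, 7mer-m8: agcagcagttcttagtGTACTGTg
It had 72, 242, 738, 172 and 5068 reads, or 1.61, 14.7, 56.7, 10.4 and 204 per 1000000 cluster reads, a log2 change of 6.30. Only P7 broke the order. A CDS 7mer-m8 of Fgb, the beta chain, had 83 reads at e12.5, was not listed at e15.5, and had 69, 156 and 211 from e18.5 on, and Apob, of lipoproteins, had 2 sites, with 51 and 39, in the adult alone. miR-101b-3p had sites in Afp, Apob and Fga. That in the 3′UTR of Afp, the fetal counterpart of albumin, had 890, 1356, 294 and 858 reads and was not listed in the adult, and one in the CDS of Apob had 80 at e12.5, 219 at P7 and 471 in the adult. miR-101a-5p had sites in Afp, Apob, Fga and Fgg. Of 11 genes of the miRNA machinery, miR-101a-3p had sites in Dicer1, Tnrc6a and Tnrc6b, miR-101b-3p also in Tnrc6c, and miR-101a-5p in Tnrc6a. The Tnrc6 proteins bind Ago and recruit the deadenylases.

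Part of the entries were the miRNAs themselves. Bases 2 to 11 of miR-101a-3p are their own reverse complement, and bases 13 to 20 are the 8mer match of miR-101a-5p, so that the gene's own reads hold a site of both arms. The first line marks the former and the second the latter in capitals.
miR-101a-3p: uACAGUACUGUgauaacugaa
miR-101a-3p: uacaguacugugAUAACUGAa
The cluster over Mir101a, where a miR-101a-3p 7mer-m8 was listed at chr4:101346967-101346973, had 3186, 1944, 4495, 15248 and 64871 reads, which was 94.2% to 99.3% of the read number of miR-101a-3p. That over Mir101b, at chr19:29135343-29135349, had 25447, 12896, 20461, 54493 and 138488, or 97.9% to 99.2% of that of miR-101b-3p. Together they were 6.75%, 6.02%, 21.4%, 43.9% and 72.1% of all reads summed over the miR-101a-3p sites. For miR-101a-5p, Mir101a alone was 1.78% at e12.5 and 72.6% in the adult. Both have no mRNA region and none is among the 3′UTR or CDS sites above. Other miRNA genes also held sites with many reads, for which the reads were not compared with the read number of the miRNA. The miR-101a-3p site with most reads outside the Mir101 genes was in Mir144 at e12.5 (72551) and e15.5 (36005) and in Mir429 at e18.5 (8441) and P7 (21293). That of miR-101b-3p was in Mir30a at e12.5 (104724), e18.5 (67309) and P7 (557801), in Mir144 at e15.5 (36005) and in Mir143 in the adult (64467). That of miR-101a-5p was the same intergenic 7mer-m8 in every library, at chr17:39846499-39846505, with 24850, 5304, 6408, 4751 and 9774. In the adult, the most read for miR-101a-3p was a 6mer in the CDS of Fgg, with 6573.

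Further sites lay in sequence that resembles miR-101 elsewhere in the genome. They were those within a stretch of at least 17 of 21 bases identical to miR-101a-3p, or 16 of 19 to miR-101b-3p, outside Mir101a and Mir101b. The annotated miR-101c, at chr9:3038680-3038698 with 121 reads in the adult, was counted among them. The stretch at chr9:3062292-3062312, printed below, holds all 19 bases of miR-101c. Examples from the adult library are printed with the identical bases in capitals.
chr9:3063355-3063375, minus strand, 372 reads: TACAGTcCTGTGATAACTGAc
chr9:3062292-3062312, minus strand, 353 reads: cACAGTACTGTGATAACTGAc
chrX:90584597-90584617, plus strand, 190 reads: TACtGTACTGTaATAACTGAA
chr2:144732075-144732095, minus strand, 140 reads: TACAGTACTGTcATAgCTGct
Of the 7mer-m8 sites of miR-101a-3p, 4.61% at e12.5 (3.07 to 6.88), 3.16%, 3.90%, 7.92% at P7 and 16.8% in the adult (12.98 to 21.6) were of this kind. Of the 8mers of miR-101a-5p they were 11 of 109 at e12.5 (10.1%), 0 of 7 at e15.5 (Wilson interval up to 35.4%), 1 of 39 in the next library, 13 of 62 at P7 and 21 of 41 in the adult (51.2%, 36.5 to 65.7). Of these 21, 12 lay in a repeat on chromosome 9, miR-101c among them, with 5 distinct read numbers. Of the 12, 6 had the same number, so that the same reads may be counted several times and the interval is too narrow. Of miR-101b-3p they were at most 2 sites in a library. In the adult 41 of the 57 such sites of miR-101a-3p were intergenic and 1 was in an mRNA region. Without them the log2 odds ratio of the arms in the adult with at least 7 matched bases was 1.08 (exact test, adjusted p = 0.00891). The shares were higher at P7 and in the adult, where miR-101 was most abundant, but not ordered by its abundance among the embryonic libraries, and whether their reads come from the miRNA was not tested.

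**Figure D5:**
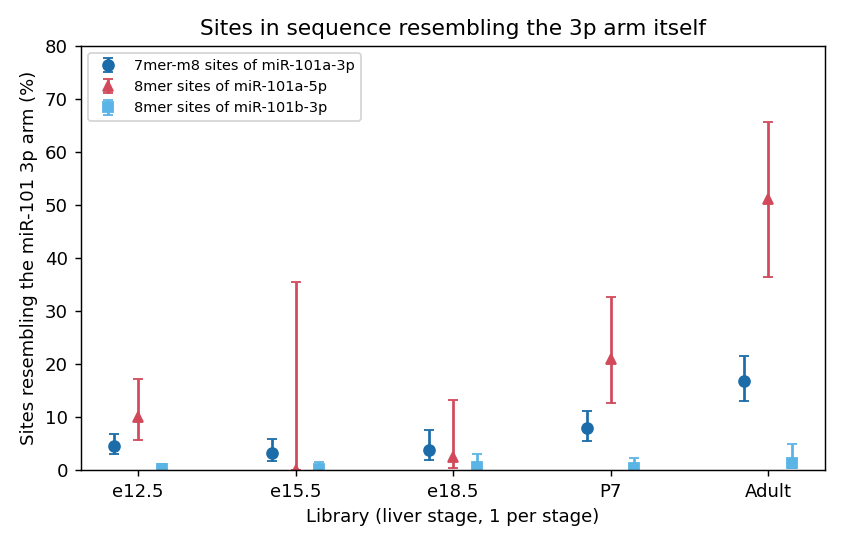
Share of sites, in percent, that lie in sequence resembling miR-101 outside Mir101a and Mir101b, miR-101c included, by library with 95% Wilson intervals. In the adult they are 51.2% of the miR-101a-5p 8mers and 16.8% of the miR-101a-3p 7mer-m8 sites, and at most 2 sites of miR-101b-3p in a library.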

How the data were processed

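Ago HITS-CLIP tables of 5 mouse liver libraries were analysed. Per the methods, the authors used the FASTX-Toolkit for trimming, Bowtie for mapping (mm10 and miRBase v19; the processing notes list mm9 and mm10), clusters of overlapping reads, refGene and Ensembl annotation, and a seed search. Pooling is not stated. Site reads, as deposited, are a signal: the highest reads in a cluster, unscaled. The e12.5 header names the miRNA target and the other headers the peak. Whether these are one measure is not known. The deposited conservation and free energy columns are scores. The whole number in each interaction name was taken as the miRNA's read count, the highest where copies differ.

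Embryonic tables hold 2 lists, which were joined, with reads added. Depth was 7781484 to 25546696 miRNA reads and 76948 to 208193 clusters. Fisher's exact tests with Benjamini-Hochberg adjustment (threshold 0.05) covered 467 miRNAs with at least 50 3′UTR clusters. On simulated data with these 467, 26 of 30 log2 odds ratios of 0.6 and 30 of 30 of 1.0 were called, and 1 of 407 unchanged. The simulated counts were drawn independently for each miRNA, without shared sites or variation between libraries. They therefore do not tell how many calls in the real libraries are false. Genes were named as the most recurrent sites of at least 7 matched bases, the largest differences from e12.5 to adult, and members of 4 lists. One site that this rule names is not reported here. Top-read sites and sites of both arms close together were added after their values were seen. The members and lists were chosen with earlier results of these data known. Python 3.11.15, numpy 2.4.6, pandas 2.3.3, scipy 1.17.1, pysam 0.24.0 and matplotlib 3.10.9 were used.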

Additional observations from a re-analysis of the deposited data

How the results depend on the processing

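No paired analysis was possible because the labels give no replicate numbers and 1 library per stage. The log2 abundance change was 4.04, 2.18 and 4.23 for miR-101a-3p, miR-101b-3p and miR-101a-5p with gene copies summed, and 4.6, 1.98 and 5.87 with the first e12.5 list. With the second list it was 2.84 for miR-101b-3p, and with 10 rpm added 4.37 for miR-101a-3p and 2.74 for miR-101a-5p. The 3′UTR share of miR-101a-3p lost its call with at least 7 matched bases (-0.10). Against 77 miRNAs larger and 113 smaller in the adult, counting genes gave 28 and 387, and the first list 68 smaller. The 3p over 5p log2 odds ratio turned with at least 7 matched bases at e15.5 (0.29) and P7 (0.11), also without sites resembling miR-101 (0.30 and 0.12), and over mRNA clusters at e12.5 (-0.12). In the adult it passed on both settings (1.11 and 1.08). With at least 7 matched bases, target genes were 800 and 561 (3′UTR and CDS) for miR-101a-3p, 870 and 530 for miR-101b-3p, and 270 and 227 for miR-101a-5p. Without sites resembling miR-101 and the Mir101 genes, added after the data were seen, the adult 7mer-m8 share of miR-101a-3p was 23.4% and the 8mer share of miR-101a-5p 7.58%. The causes were not tested. The other values tried, 61 of the main comparisons and 8 of the seed types, kept their side or stayed within the limits set, with miR-101a-3p against miR-144-3p between 1.18 and 1.93. The number of reads limits the values of the 5p arm at e15.5, where it had 1.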
